A study of Drosophila melanogaster with 6 samples.

Results

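Clan 4 is a branch of the cytochrome P450 superfamily. The genes described here are the Drosophila melanogaster members of the Cyp4 family and of the families numbered Cyp31 and a further digit. They were read in the adult midgut of females and males. The members were taken by symbol: every gene identifier in the count tables whose current symbol starts with Cyp4 and a letter, or with Cyp31 and a further digit. This rule found 34 genes among 15682 identifiers. It used no measured value. A pair of them, Cyp310a1 and Cyp317a1, match by number but are placed in the CYP3 clan by the usual classification, which leaves 32 genes of clan 4 proper. The number of genes called in each direction is the same with and without this pair.

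The samples were dissected midguts of virgin flies of the strain w1118, 15 days old and kept at 29 °C, with 3 libraries from females and 3 from males. Each library pooled 30 midguts, and both sexes shared the strain, the age, the virgin state and the temperature, with no further treatment named in the labels. The comparison asks which genes the midguts of the sexes express at different levels. Nothing in the labels says that replicates came from separate cultures, so the p-values reflect only how far these pools differ from each other, which may be partly technical.

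Cytochrome P450 enzymes hold a haem group and insert 1 oxygen atom of molecular oxygen into a substrate. Those of the endoplasmic reticulum, where clan 4 enzymes sit, receive electrons from NADPH-cytochrome P450 reductase, the product of Cpr, and in part from cytochrome b5. Enzymes of the CYP4 family are best known in animals for hydroxylating fatty acids at the far end of the chain. In insects some members have other tasks, such as the last step of cuticular hydrocarbon synthesis in the oenocytes (Cyp4g1), while others have been tied to the breakdown of foreign compounds. Only roles that are well established are given below, and for most members none is stated.

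Library totals ranged from 23825935 to 38406746 counts, so that 3 counts stood for 0.0781 to 0.126 CPM, a floor that covers counting error only. CPM are counts for every 1000000 counts of a library, here scaled between libraries by TMM factors. For roX1, a male-specific RNA, females had 0.493 ± 0.287 CPM and males 587 ± 111 CPM (SD, n = 3 each), with no overlap between the sexes. The 5 enterocyte markers together held 39198 to 59003 CPM, so the tissue carried the markers of its main absorptive cell. Most of that sum came from alphaTry, at 22092 to 33689 CPM, and Jon65Aiv, at 15546 to 24475 CPM. Myo31DF stood at 480 to 698 CPM, Mur29B at 241 to 385 and nub at 94.5 to 133. Of the marker lists for other cells, the 8 fat body genes summed to 55.4 to 294 CPM in females and 10 to 29.8 CPM in males, with Fbp1 at 0 counts throughout. The yolk protein genes Yp1, Yp2 and Yp3 made up most of the female sum, at means of 64.2, 27.5 and 30.9 CPM in females and 1.62, 0.741 and 2.37 CPM in males, while apolpp, a lipid carrier gene, stood at 12.8 and 12.7 CPM. Among the females, replicate 1 stood apart for both kinds. Yp1 was at 145, 24.9 and 23.2 CPM in female replicates 1 to 3, and apolpp at 24.9, 7.06 and 6.45 CPM. In male replicates 1 to 3 apolpp was uneven too, at 5.62, 17.3 and 15.1 CPM. Of the 5 fat body genes tested, 0 passed in edgeR. Before adjustment 3 had a p under 0.05, and DESeq2 called 2 and limma-voom 0. The visceral muscle genes summed to 274 to 739 CPM in females and 354 to 773 CPM in males. The Malpighian tubule genes summed to at most 11.8 CPM in a library and the hindgut genes to at most 1.99 CPM. The 6 enteroendocrine genes summed to 307 to 353 CPM in females and 414 to 464 CPM in males. Of these 6, 2 were higher in males, or 33.3%, where 5.53% of all tested genes were. The part of these cells in the results below was not tested.

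Most clan 4 transcripts in this tissue came from 12 genes, and a single gene, Cyp4d14 (FBgn0023541, on the X), stood above the rest. Levels of different genes are compared per kilobase of exon, with exon lengths from the Ensembl annotation of BDGP6. Cyp4d14 reached 160, 186 and 107 CPM per kilobase in female replicates 1 to 3 and 185, 219 and 383 in male replicates 1 to 3. It ranked first among the 34 genes in all 6 libraries and took 26.8% of the counts of the group.

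A tier of autosomal genes followed, with much the same level in both sexes. Cyp4ac1 (2L) stood at 64.4, 81.5 and 62.1 CPM per kilobase in the females and at 73.5, 68.6 and 60.6 in the males. Cyp4ad1 (2R) stood at 66, 83 and 66.1 in the females and at 64, 58.6 and 58.7 in the males. These genes overlapped each other in both sexes, so their order is not settled. Cyp4p2 (2R) stood at 56.5, 69.6 and 46.1 CPM per kilobase in females and 58.8, 52.2 and 60.3 in males. Cyp4d8 (3L) followed at 46.9, 66.5 and 55.6 in females and 44.5, 48.4 and 50.7 in males. For Cyp4ad1 the lowest female value lay just above the highest male value, whereas the sexes overlapped for Cyp4ac1, Cyp4p2 and Cyp4d8.

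The order below this tier differed between the sexes. Cyp4ae1 ranked 6 in females, at a mean of 55.1 ± 9 CPM per kilobase, and 10 in males, at 31.9 ± 1.28. Cyp4s3 ranked 5 in males, at a mean of 48.9 ± 10.1 CPM per kilobase, and 12 in females, at 7.84 ± 3.65. Cyp4d2 ranked 10 in females, at 38.5 ± 3.45, and 13 in males, at 15 ± 0.421 (SD, n = 3 each). Cyp4e2, Cyp4p1 and Cyp4d1 lay between 34 and 50.8 in the means of both sexes, and Cyp311a1 stood at 23.1 ± 4.05 in females and 22.6 ± 4.65 in males. The remaining members, apart from Cyp4g1, had means under 6 CPM per kilobase in each sex.

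**Figure D1:**
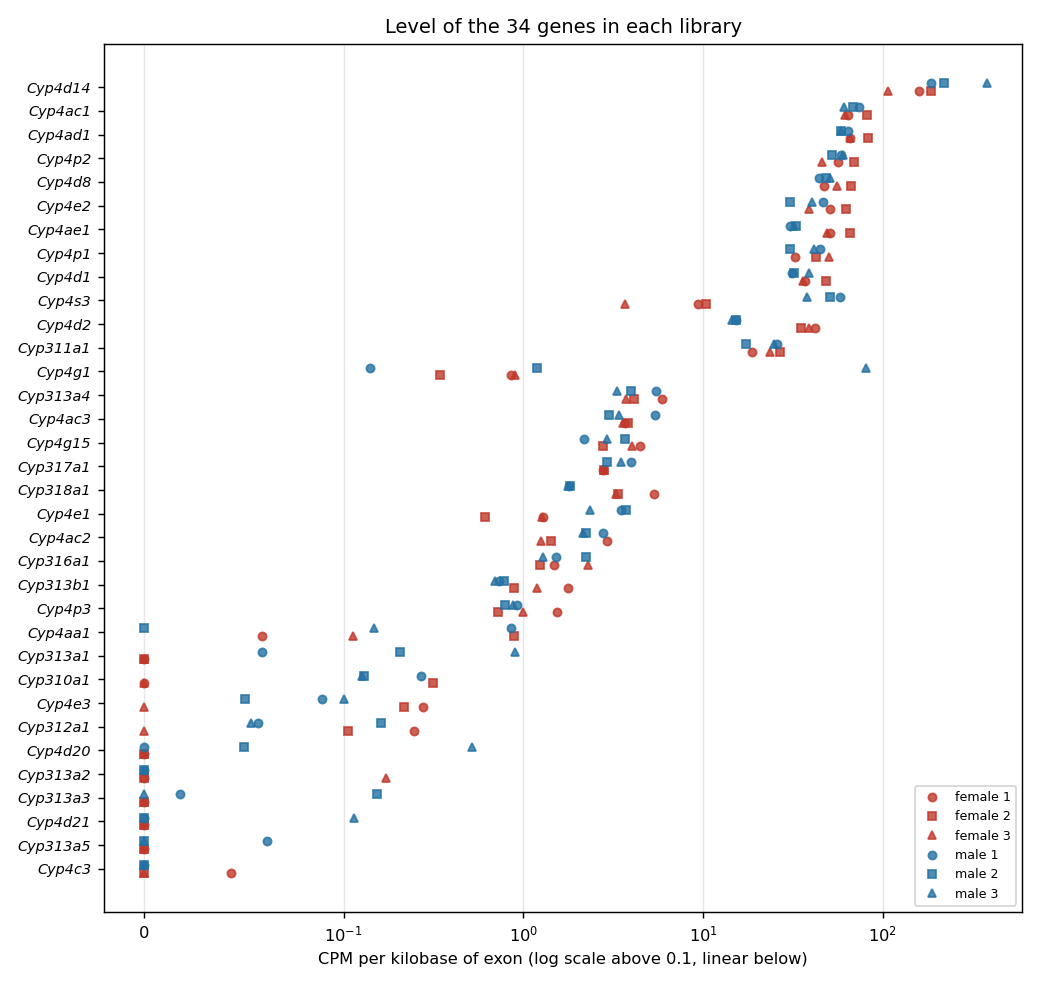
Level of each of the 34 genes in CPM per kilobase of exon (horizontal axis, logarithmic above 0.1 and linear below), 1 row per gene, ordered by the mean over the 6 libraries. Red symbols are female libraries and blue symbols male libraries; Cyp4d14 lies farthest to the right in every library, Cyp4s3 and Cyp4d2 split by sex, and Cyp4g1 is high in male replicate 3 alone.

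Between the sexes, 5 members passed the test and they went both ways: Cyp4d2, Cyp4ae1 and Cyp318a1 were higher in females, and Cyp4s3 and Cyp4e1 were higher in males. Of the 34 genes, 24 had enough counts to be tested, 10 did not, and 19 of those tested were not called. The 3 genes higher in females were 12.5% of the tested members, where 3.87% of all tested genes were called in that direction. The 2 genes higher in males were 8.33%, against 5.53% over all tested genes. A gene counted as called at a Benjamini-Hochberg adjusted p under 0.05 over the 8941 genes tested with edgeR's quasi-likelihood test, two-sided; in either direction 9.39% of those genes were called. The median log2 fold change of female over male was 0.11 for the tested members and -0.02 for all tested genes. In bulk tissue, fewer cells of a type and less RNA per cell cannot be told apart.

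**Figure D2:**
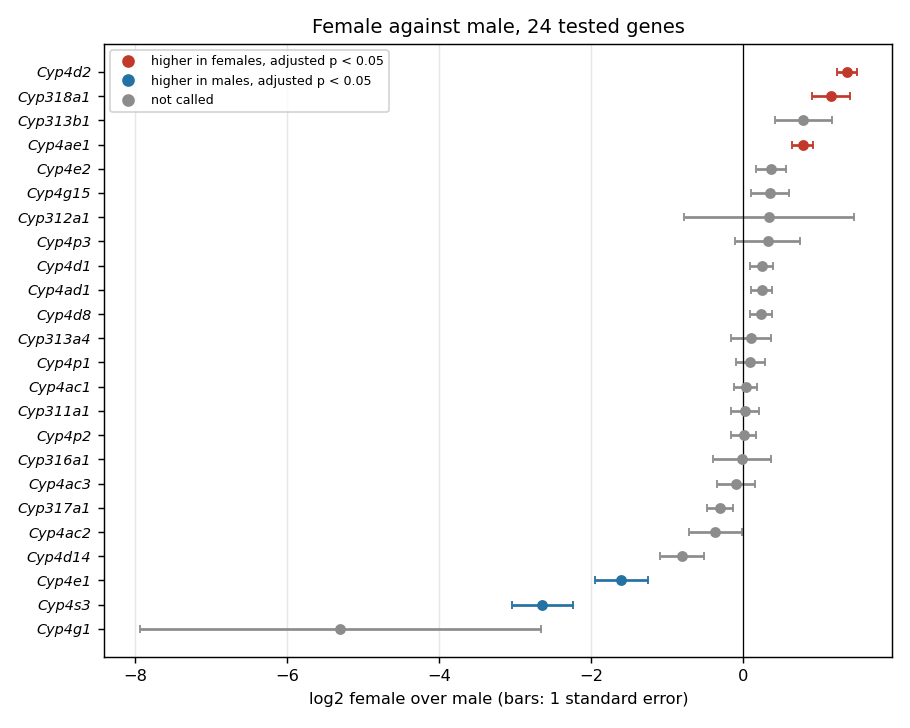
Fold change of the 24 tested members as log2 female over male (horizontal axis), with bars of 1 standard error. Red points passed toward females and blue points toward males while grey points were not called, among them Cyp4g1 at -5.30, which has the widest bar.

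Cyp4d2 (FBgn0011576, X) had the smallest p of the members. Its level was 103, 86.3 and 95.8 CPM in female replicates 1 to 3 and 37.4, 37.6 and 35.7 CPM in male replicates 1 to 3. The lowest female library stood far above the highest male library. The gene was 2.58-fold higher in females (log2 1.37 ± 0.13, edgeR adjusted p = 0.00011), and each standard error was derived from the F statistic of the test and the size of the fold change, so it restates the p-value. Between 1.31 and 1.43 on the log2 scale, the call held without each library in turn.

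Cyp4ae1 (FBgn0015036) lies directly beside Cyp4d2 on the same strand of the X. It stood at 92.7, 119 and 89.2 CPM in females and at 55.6, 60.3 and 58.3 CPM in males, with no overlap between the sexes. It was 1.73-fold higher in females (log2 0.79 ± 0.14, edgeR adjusted p = 0.00493). Both genes lie opposite a single antisense RNA gene, asRNA:CR44690, which covers 98.7% of the exon bases of Cyp4d2 and 88.3% of those of Cyp4ae1 in the BDGP6 annotation. That antisense gene has no row of its own in the tables, and no source used here gives the strand setting with which reads were counted. Reads from these 2 genes and from the antisense RNA therefore cannot be told apart.

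Cyp318a1 (FBgn0030369, X) was a lower gene, at 10.1, 6.37 and 6.22 CPM in females and 3.4, 3.41 and 3.33 CPM in males. The males were close to each other, and female replicate 1 stood above the other females. The gene was 2.23-fold higher in females (log2 1.16 ± 0.25, edgeR adjusted p = 0.0146). The call was lost without female replicate 1 (log2 0.90, edgeR adjusted p = 0.0761) and without male replicate 2 (log2 1.16, 0.0608). Its neighbour Cyp311a1, which points the other way on the X, stood at 28.6, 40.9 and 35.9 CPM in females and 39.1, 26.3 and 38 CPM in males and was not called (log2 0.03 ± 0.19, edgeR adjusted p = 0.967). The log2 ratio of Cyp318a1 to Cyp311a1 was -2.24 ± 0.64 in females and -3.33 ± 0.33 in males (mean ± SD of 3 libraries). An exact permutation test over libraries, two-sided, gave p = 0.1, below which 3 against 3 cannot go. Since Cyp318a1 was already called in these same libraries, this ratio is not a separate result.

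Cyp4s3 (FBgn0030615, X) had the largest fold change among the called members. It stood at 21.5, 23.9 and 8.39 CPM in female replicates 1 to 3 and at 132, 117 and 86.8 CPM in male replicates 1 to 3. The lowest male library lay far above the highest female library, and female replicate 3 was the lowest of all. The gene was 6.24-fold higher in males (log2 -2.64 ± 0.40, edgeR adjusted p = 0.00838), and the call held without each library in turn, at an edgeR adjusted p of up to 0.0453.

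The opposite-strand partner of Cyp4s3 moved the same way. Rab3-GEF, which codes for an exchange factor of the small GTPase Rab3, shares 461 exon bases with Cyp4s3, or 20.1% of the 2288 exon bases of the latter. Rab3-GEF had 68, 166 and 96 counts in females and 692, 669 and 451 in males, against 520, 731 and 247 and then 4111, 3848 and 3336 for Cyp4s3. Cyp4s3 thus had the higher count of the pair in each of the 6 libraries. Rab3-GEF was also called higher in males (log2 -2.23 ± 0.31, edgeR adjusted p = 0.00129). The log2 ratio of the pair was 2.15 ± 0.79 in females and 2.66 ± 0.20 in males (SD, n = 3; p = 0.4 in the exact two-sided permutation). Without the strand setting, reads over the shared exon bases cannot be told apart.

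Cyp4e1 (FBgn0015034, 2R) was the other member higher in males, at a low level. It stood at 2.28, 1.08 and 2.24 CPM in females and 6.19, 6.64 and 4.14 CPM in males, from 33 to 66 counts in a female library and 159 to 218 in a male library. The sexes did not overlap, and the gene was 3.04-fold higher in males (log2 -1.60 ± 0.35, edgeR adjusted p = 0.0146). The call was lost without male replicate 2 (log2 -1.47, edgeR adjusted p = 0.0801). Its 3' end overlaps Mal-A1, an abundant maltase gene on the opposite strand, over 82 exon bases, or 4.63% of its exons. Mal-A1 had 223459 to 766232 counts in a library. Without the strand setting, reads of Cyp4e1 and Mal-A1 over the shared exon bases cannot be told apart. Mal-A1 itself passed toward males (log2 -1.19 ± 0.19, edgeR adjusted p = 0.00247), at 9796 ± 1716 CPM in females and 22343 ± 2246 in males. The log2 ratio of Cyp4e1 to Mal-A1 was -12.42 ± 0.85 in females and -11.97 ± 0.25 in males (SD, n = 3; p = 0.6 in the exact two-sided permutation). Cyp4e2, the neighbour of Cyp4e1 away from the maltase, stood at 96.4, 119 and 73.6 CPM in females and 88.4, 58 and 76.8 CPM in males and was not called (log2 0.37 ± 0.20, edgeR adjusted p = 0.331). The log2 ratio of Cyp4e1 to Cyp4e2 was -5.74 ± 0.92 in females and -3.73 ± 0.55 in males (exact two-sided permutation p = 0.1). As Cyp4e1 was already called in these same libraries, this ratio is not a separate result.

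**Figure D3:**
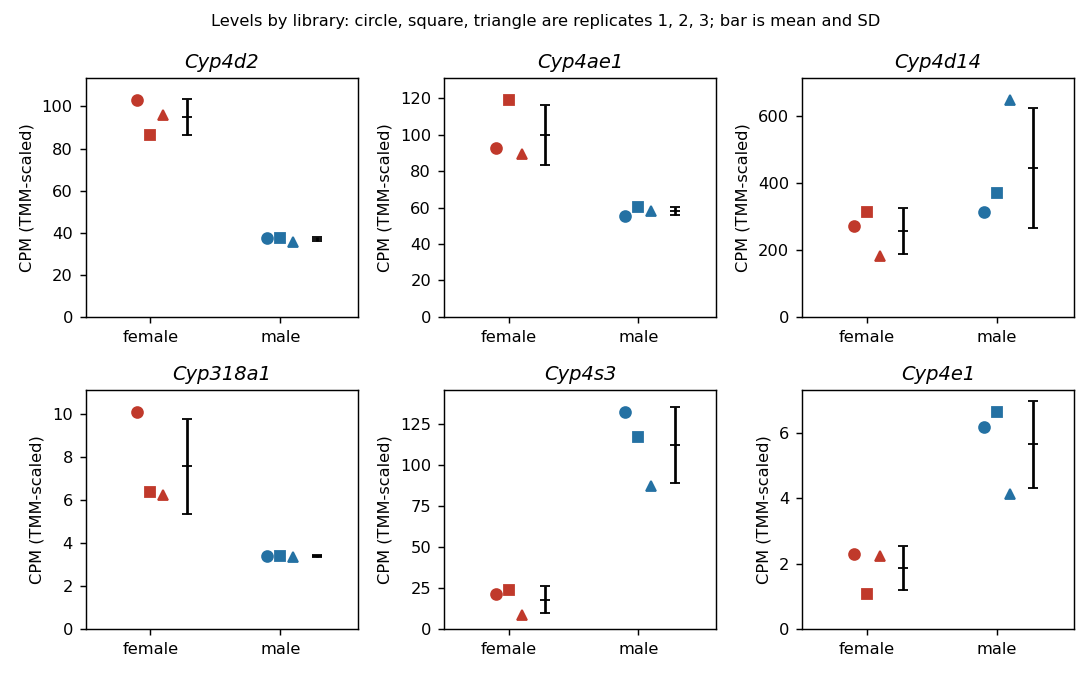
CPM of the 5 called members and of Cyp4d14 in each library (vertical axes, linear and starting at 0), females in red and males in blue. Circles, squares and triangles are replicates 1, 2 and 3, and black bars are the mean and SD; the sexes are apart for all but Cyp4d14, whose highest female value of 315 CPM lies beside the lowest male value of 314 CPM.

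The fold change of the most abundant member had the opposite sign from those of Cyp4d2 and Cyp4ae1, without passing. Cyp4d14 lies on the other strand from Cyp4d2, with only antisense RNA genes between them, and stood at 272, 315 and 182 CPM in females and 314, 371 and 648 CPM in males. The sexes touched, with male replicate 3 far above the other libraries, and the gene did not pass in edgeR (log2 -0.80 ± 0.29, adjusted p = 0.143). DESeq2 called it (log2 -0.78, adjusted p = 0.0354), and without male replicate 3 the edgeR log2 fold change was -0.42 (adjusted p = 0.308). Within the neighbourhood, the log2 ratio of Cyp4d2 to Cyp4d14 was -1.40, -1.87 and -0.92 in females and -3.07, -3.31 and -4.18 in males. All 3 female ratios lay above all 3 male ratios, by 2.12 on the log2 scale in the means (p = 0.1 in the exact two-sided permutation). For Cyp4ae1 over Cyp4d14 the difference was 1.54 (exact p = 0.1). Cyp4d2 and Cyp4ae1 were already called in these same libraries, so their ratios to Cyp4d14 are not separate results. A further antisense gene without a row in the tables, asRNA:CR45479, covers 96.2% of the exon bases of Cyp4d14. On its other side lies ND-B14.5A, a gene for a subunit of mitochondrial complex I, which shares 18 exon bases with it on the opposite strand. ND-B14.5A was also highest in male replicate 3, at 77.8 CPM against 35.8 to 59.1 CPM in the other libraries, and was not called (log2 -0.15 ± 0.29, edgeR adjusted p = 0.856).

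As a sum, the 34 genes held a share of all counts that overlapped between the sexes. The share was 0.125%, 0.134% and 0.112% in female replicates 1 to 3 and 0.132%, 0.13% and 0.174% in male replicates 1 to 3 (exact two-sided permutation p = 0.3). Without Cyp4g1 the means were 0.123% ± 0.0112 in females and 0.139% ± 0.0145 in males (exact p = 0.3). Within the sum, Cyp4d14 and Cyp4s3 each held a larger part in every male library than in any female library. Cyp4d14 held 16.4% to 22.1% of the group's counts in females and 24.3% to 37.3% in males. Cyp4s3 held 0.759% to 1.75% and 4.99% to 10.2% (exact two-sided permutation p = 0.1 each). That is the lowest p that 3 against 3 can give. Cyp4s3 was already called in these same libraries, so its share is not a separate result.

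**Figure D4:**
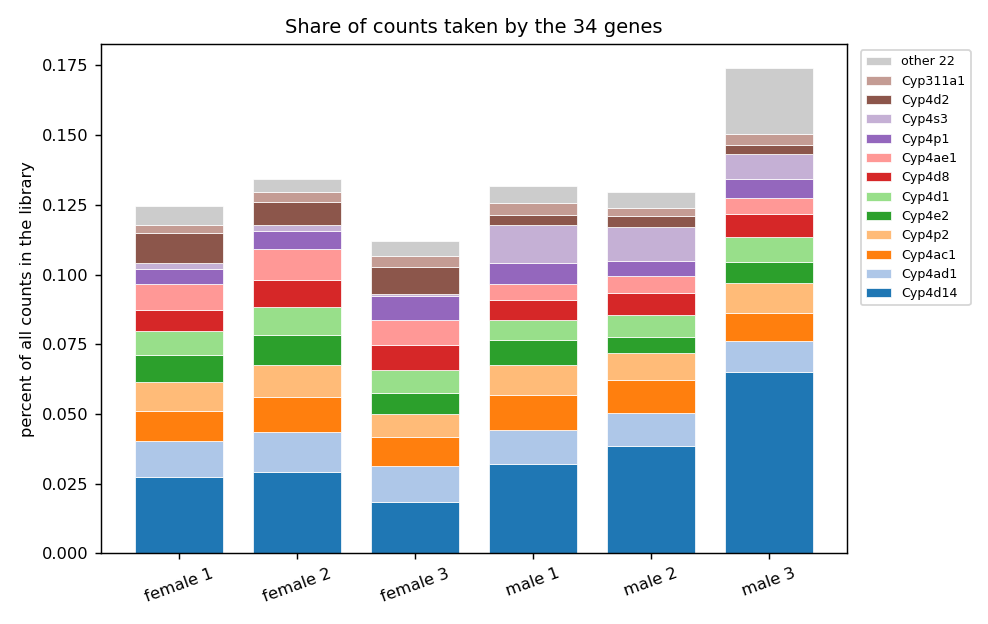
Percent of all counts in each library that fell on the 34 genes (vertical axis, starting at 0), stacked by gene for the 12 genes with the largest mean share and with the other 22 in grey. Male replicate 3 is the tallest bar at 0.174%, with the largest Cyp4d14 segment and, in grey, the Cyp4g1 counts; the light purple Cyp4s3 segment is thin in females.

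Cyp4g1 (FBgn0010019, X), the oenocyte enzyme that makes hydrocarbons for the cuticle, was uneven among the libraries. It had 47, 24 and 60 counts in female replicates 1 to 3, 10 and 89 in male replicates 1 and 2, and 7042 in male replicate 3. At 183 CPM, male replicate 3 stood 67.6-fold above the next library, and the other 5 libraries lay between 0.321 and 2.71 CPM. The log2 fold change of -5.30 ± 2.64 did not pass (edgeR adjusted p = 0.379), and without male replicate 3 it was 0.06 (adjusted p = 0.983). No difference between the sexes can be read from this gene.

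The same library carried other transcripts that the rest lacked. Acp36DE, a seminal fluid protein gene, had 513 counts in male replicate 3, 2 in female replicate 1 and 0 elsewhere, and the 5 male genital tract markers together stood at 21.6 CPM there against 0.426 CPM or less in the other 5 libraries. Of the 6 other oenocyte markers, CG17560 had 109 counts in male replicate 3 and at most 1 elsewhere, and the fatty acid synthase gene FASN2 had 262 against 42 to 70. FarO, an oenocyte reductase gene, was lowest in that library, at 107 counts against 140 to 245. CG17562 had 46 counts there and at most 3 elsewhere, while eloF and Fad2 had 0 there and at most 6 elsewhere. The 6 together summed to 13.6 CPM in male replicate 3 and 6.77 to 10.3 CPM elsewhere, and no oenocyte marker used was at 0 in all libraries. The part of these tissues in the Cyp4g1 value was not tested. Over all genes, 13, with Cyp4g1 among them, stood at 10 CPM or more and over 10-fold above every other library in male replicate 3, against 0 genes in each of the other 5 libraries.

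**Figure D5:**
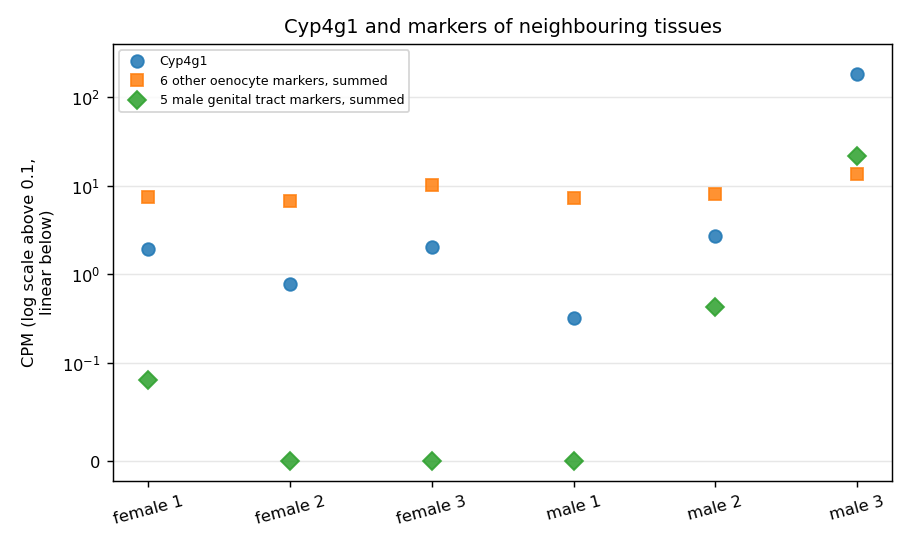
CPM of Cyp4g1, of the 6 other oenocyte markers summed and of the 5 male genital tract markers summed, by library (vertical axis logarithmic above 0.1 and linear below). Cyp4g1, the male genital tract markers and the other oenocyte markers are each highest in male replicate 3, at 183, 21.6 and 13.6 CPM. In the other libraries the other oenocyte markers lie between 6.77 and 10.3 CPM.

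The other tested members did not pass, and most fold changes were small. In the cluster of 3 Cyp4ac genes on 2L, which lie in a row on the same strand, Cyp4ac1 had a log2 fold change of 0.04 ± 0.15, Cyp4ac2 of -0.36 ± 0.35 and Cyp4ac3 of -0.09 ± 0.25 (edgeR adjusted p of 0.654 to 0.94). Cyp4ac1 was the high gene of the row, at 116 ± 17.7 CPM in females and 113 ± 10.8 in males, while Cyp4ac2 and Cyp4ac3 lay between 2.14 and 8.7 CPM in the 6 libraries. The Cyp4p row on 2R was as uneven: Cyp4p2 and Cyp4p1 stood at 51.2 to 124 CPM, and Cyp4p3 at 1.21 to 2.57 CPM. Their log2 fold changes were 0.01 ± 0.16, 0.10 ± 0.19 and 0.33 ± 0.43 (edgeR adjusted p of 0.767 to 0.99). These rows are tandem copies, and reads that fit several of them could shift single values, since the treatment of such reads is not given in the sources used here.

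Among members outside these rows, Cyp4d1 and Cyp4d8 had positive fold changes that did not pass (log2 0.25 ± 0.15 and 0.24 ± 0.15, edgeR adjusted p = 0.423 and 0.422). For Cyp4ad1, Cyp313b1 and Cyp317a1 the ranges of the sexes were apart, yet none passed. Cyp4ad1 stood at 126, 158 and 126 CPM in females and 122, 112 and 112 CPM in males (log2 0.25 ± 0.14, edgeR adjusted p = 0.353). Cyp313b1 stood at 3.81, 1.9 and 2.55 against 1.57, 1.68 and 1.48 CPM (log2 0.80 ± 0.38, edgeR adjusted p = 0.261). Cyp317a1, of the CYP3 clan, stood at 11.4, 11.5 and 11.5 against 16.2, 11.9 and 14.2 CPM (log2 -0.30 ± 0.17, edgeR adjusted p = 0.365); it shares 32.6% of its exon bases with Kank on the opposite strand. In all, 8 of the 24 tested members, or 33.3%, had sexes that did not overlap, where 26.2% of all tested genes did. The last tested members were Cyp4g15, of the same subfamily as Cyp4g1, with 178 to 320 counts in each library, Cyp313a4 with 181 to 281, Cyp316a1 with 52 to 106 and Cyp312a1 with 0 to 20. Their log2 fold changes lay between -0.01 and 0.36, with standard errors of 0.25 to 1.12.

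The called members were mostly on the X. All 9 X-linked members were tested, and 3 were higher in females and 1 in males, 44.4% against 10.4% of the 1432 X-linked genes tested. Of 25 autosomal members 15 were tested and 1 was called, 6.67% against 9.32% of 7069 autosomal genes. The median log2 fold change was 0.25 for the X-linked members and 0.05 for all tested X-linked genes. Cyp4d2 and Cyp4ae1 are neighbours and are not independent of each other in position.

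The 10 members too low to test were all autosomal. Cyp313a1 had 0 counts in the 3 female libraries and 3, 11 and 56 in male replicates 1 to 3. Against a floor of 3 counts over the female group, the male total was at least 19.2-fold higher, and at least 6.14-fold without male replicate 3. These bounds leave out the spread among the male libraries. With every gene of at least 1 count tested, it was called higher in males (edgeR adjusted p = 0.0242). It could also be tested under the main filter when certain single libraries were dropped. Dropping each female library in turn gave no call, with adjusted values of 0.103 to 0.118 in edgeR. Dropping male replicate 1 gave a call toward males (0.0405 in the same test). The call for Cyp313a1 thus depended on the setting. Cyp4d20 had 0 counts in the females and 0, 3 and 36 in the males. Cyp4d21, also known as sxe1 and studied for its male-biased expression in the head, had 8 counts, all in male replicate 3. For Cyp313a1, Cyp4d20 and Cyp4d21 the library with the most counts was thus the one that also carried Cyp4g1 and the male genital tract genes.

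The remaining low members had few counts or uneven ones. Cyp4aa1 had 3, 57 and 7 counts in females and 56, 0 and 12 in males. Cyp4e3, which has been tied to insecticide tolerance in the Malpighian tubules, had 12, 12 and 0 counts in females and 5, 3 and 7 in males. The CYP3 clan gene Cyp310a1 had 0, 16 and 0 against 14, 7 and 8. Cyp313a3 had 0 counts in females and 1, 9 and 0 in males, so the sexes overlapped at 0. Cyp313a2 had 8 counts, all in female replicate 3, Cyp313a5 had 3 counts, all in male replicate 1, and Cyp4c3 had 2 counts, both in female replicate 1. Apart from Cyp4aa1, which was uneven among the libraries of both sexes, these genes had at most 16 counts in a library.

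On the list drawn up for P450 redox partners, a single gene was called. Of 6 tested genes on this list, 1 was higher in males, 0 were higher in females and 5 were not called. The called gene was 16.7% of those tested, where 9.39% of all tested genes were called in either direction. That gene was Cyt-b5-r, at 8.43 ± 2.81 CPM in females and 20.2 ± 5.08 in males (log2 -1.27 ± 0.26, edgeR adjusted p = 0.0108). It was not called once female replicate 2 was left out. Cyt-b5-r codes for a cytochrome b5-related protein and not for cytochrome b5 itself, and whether it serves P450 enzymes was not tested. Cpr, the reductase that clan 4 enzymes need, stood at 360 ± 18.5 and 410 ± 36 CPM and was not called (log2 -0.19 ± 0.14, edgeR adjusted p = 0.522). Cytochrome b5, from Cyt-b5, stood at 412 ± 82.2 and 548 ± 152 CPM (log2 -0.41 ± 0.21, edgeR adjusted p = 0.318), and dare, the adrenodoxin reductase gene of the mitochondrial electron chain, was at log2 -0.34 ± 0.17 (adjusted p in edgeR 0.294). Of 6 tested genes for haem synthesis and breakdown, 0 passed in edgeR. Before adjustment 1 had a p under 0.05, and DESeq2 and limma-voom called 0 each. The 3 with the smallest p were Urod, Ppox and Alas, with log2 fold changes of -0.31, -0.15 and -0.17.

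Among regulators of detoxification genes, 11 were tested, and 0 passed toward males. The 2 that passed toward females were 18.2% of those tested, where 3.87% of all tested genes were called that way. Both are receptors of juvenile hormone: gce stood at 128 ± 8.49 CPM in females and 48.8 ± 6.46 in males (log2 1.39 ± 0.14, edgeR adjusted p = 0.000142), and Met at 22.3 ± 1.52 and 15.3 ± 0.487 CPM (log2 0.54 ± 0.13, edgeR adjusted p = 0.0276). The next was maf-S, a partner of the Nrf2 homologue encoded by cnc, which was not called (log2 0.45 ± 0.16, edgeR adjusted p = 0.124). With no scaling beyond the library total, with the replicate block, and without each of female replicates 1 and 3 and male replicate 2, 1 of the 11 was higher in females, and without male replicate 3 a further 1 was higher in males. The median log2 fold change of the list was 0.14, against -0.02 for all tested genes.

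The other P450 clans give the setting for these values. The CYP3 clan, with 37 genes of which 33 were tested, had 6 genes higher in males and 1 in females and a median log2 fold change of -0.36, where clan 4 had 2 and 3 and a median of 0.11. The call toward females was lost with the replicate block and without each of female replicates 1 and 2 and male replicate 2, and without female replicate 3 the calls toward males came to 4. Its 3 genes with the smallest p were Cyp6d2, Cyp6g1, known for DDT resistance, and Cyp309a1, with log2 fold changes of -1.73, -1.85 and -1.48. The CYP3 genes held 0.515% ± 0.0523 of a female library's counts and 0.793% ± 0.138 of a male library's (SD, n = 3; p = 0.1 in the exact two-sided permutation), several times the share of clan 4 in either sex. Of 10 tested genes of the mitochondrial clan, shd, which codes for the enzyme that makes 20-hydroxyecdysone, was higher in females (log2 1.96 ± 0.20, edgeR adjusted p = 0.000195). Cyp12c1 passed toward males (log2 -0.81 ± 0.17, edgeR adjusted p = 0.0135), though not once female replicate 1 or 3 was left out, and Cyp12b2 came next without passing (log2 -0.42 ± 0.15, edgeR adjusted p = 0.127). Of 4 tested genes of the CYP2 clan, 0 passed in edgeR, in DESeq2 and in limma-voom, and 0 had a p under 0.05 before adjustment. Cyp18a1, Cyp303a1 and Cyp305a1 had the smallest p, with log2 fold changes of 1.68 ± 0.91, -2.24 ± 1.27 and -0.67 ± 0.38. Calls in either direction made up 21.2% of the tested CYP3 genes, 20% of the mitochondrial clan and 20.8% of the clan 4 members. Over all tested genes they made up 9.39%. In these comparisons Cyp310a1 and Cyp317a1 were kept with the clan 4 members and were not among the 37 CYP3 genes. Without the pair, 21.7% of the tested clan 4 genes were called, and their median log2 fold change was 0.11. Whether clan 4 differs from the other clans in these counts was not tested.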

How the data were processed

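Per the labels, libraries came from a kit for mRNA that keeps the strand, with 500 ng of total RNA each, and were read as pairs of 100 bases. The authors deposited unnormalized whole-number counts for each gene. The submitters' processing notes name TopHat2 2.0.11, HTSeq and the build dm3. How strand and multiply mapped reads were handled, and from which annotation release, is not given in the sources used here. Of 15682 identifiers, 15002 matched a current symbol. Chromosome arms, neighbours, exon lengths and exon overlaps came from the Ensembl annotation of BDGP6 by identifier, and no coordinates are given because the builds differ.

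From these counts, genes were kept with filterByExpr (minimum count 10, minimum total 15), scaled with TMM and tested with edgeR 4.0.16 in R 4.3.3 (quasi-likelihood, robust, sex alone, 6 libraries), adjusted over all tested genes. Shares and ratios were compared with exact permutation tests in scipy 1.17.1. DESeq2 1.42.0 and limma-voom 3.58.1 were alternatives. All members are named; full values go to called members, Cyp4g1 and the 5 highest per kilobase, and the 3 smallest p of other lists. Neighbour and overlap partners, Acp36DE and the single oenocyte, enterocyte and fat body markers were named after their values were seen. The members and lists were chosen with earlier results of these data known. Listed symbols that did not match were not used here. The counts of replicate pairs differed beyond sampling noise, with a chi-square of 30.6 or more for each degree of freedom. Checked on simulated data, the test recovered most of the larger changes and few of the smallest ones.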

Additional observations from a re-analysis of the deposited data

How the results depend on the processing

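Cyp4d2, Cyp4ae1 and Cyp4s3 were called in the same direction in all 13 alternatives. Genes higher in females over the whole table came to 552 with DESeq2 and to 164 to 419 when single libraries were left out, against 346; the counts were 171 without female replicate 1, 219 without female replicate 3 and 164 without male replicate 2. Members higher in males came to 1 with a filter of 5 CPM, which removes Cyp4e1, to 1 at an adjusted p under 0.01, and to 1 to 3 when single libraries were left out (1 without male replicate 2), against 2. The female share of counts minus the male share was -0.0216 percentage points, -0.0293 to -0.00716 when single libraries were left out (-0.00716 without male replicate 3), and 0.00467 without Cyp4g1 and Cyp4d14, an alternative chosen after seeing the data. The remaining reversals were all of genes not called under either setting, and their cause was not tested. Cyp316a1 moved from -0.01 to 0.00 with RLE, DESeq2 and limma-voom, and Cyp4p2 from 0.01 to -0.06 with no scaling and to -0.01 with a 5 CPM filter, limma-voom and the replicate block. With no scaling Cyp311a1 and Cyp4ac1 were both at -0.03, and Cyp312a1 was at -0.77 with limma-voom and -0.23 with the replicate block. When single libraries were left out, the log2 fold changes ranged from -0.11 to 0.35 for Cyp313a4, -0.30 to 0.25 for Cyp316a1, -0.73 to 1.04 for Cyp312a1, -0.14 to 0.16 for Cyp311a1, -0.10 to 0.12 for Cyp4ac1, -0.16 to 0.14 for Cyp4p2, -0.05 to 0.26 for Cyp4p1, -0.26 to 0.22 for Cyp4ac3 and -5.88 to 0.06 for Cyp4g1. Deviations from the sex means had correlations of -0.105, -0.276 and -0.136 between females and males of the same replicate number, 1 to 3. Pairs of unlike numbers had -0.108 to 0.274. Taken from 3 libraries per sex, these values cannot show whether the replicates were paired. With the replicate block the calls again came to 3 members toward females and 2 toward males, and the share differed by -0.0216 percentage points. DESeq2 gave Cyp4g1 no adjusted p, and the 5 CPM filter gave low members such as Cyp4e1 no value. The 10 untested members had at most 57 counts in a library, and whether more depth would change their values was not tested.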
